A study of Mus musculus with 6 samples.

Results

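The table of transcript abundances listed 9413 long non-coding RNAs (lncRNAs), and for 8615 of them it gave a chromosome, start and end. For 798 it gave none. Described here are 743 of these 798, namely the unique entries whose name is either Gm followed by a number or a clone name ending in Rik. These members comprised 632 Gm and 111 Rik entries, and the choice used the name and the empty position cells, not the abundances.

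RNA came from isolated hearts of male mice, held beating on a Langendorff apparatus, which perfuses the coronary vessels of a heart outside the body. In the 3 Sham hearts contraction was not stopped. The 3 I/R hearts, for ischaemia and reperfusion, were arrested with a cardioplegic solution for 30 min and then reperfused for 1 h. The labels give no strain, age or genotype, and the hearts of both groups had been isolated and perfused. Whole-heart RNA was selected for poly(A) tails, so fewer cells of a type and less RNA per cell cannot be told apart in any value below. The labels call the 3 hearts of a group biological replicates and do not say more about their origin.

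LncRNAs are transcripts that are not known to be translated. Many are spliced and polyadenylated like mRNAs, are present at low levels and lie beside or across protein-coding genes. A few are known to act in the nucleus on neighbouring genes or on chromatin, but for most no function has been described. Gm (gene model) and Rik (RIKEN cDNA clone) are placeholder names that mouse annotation gives to a locus before anything is known of its product, so a member's name carries no function, and what can be said of most members is their position, length and level.

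The promoters of 4 members show what lay behind such a name. Their values are given further on. Gm46555 was selected by the rule for named members, for its small unadjusted p, and the others after their values were seen. None of the 4 was thus chosen independently of its values. Each sequence runs 5′ to 3′ on the strand of the lncRNA from 250 bases before to 50 bases after the start of the gene, was taken from RefSeq (GRCm38.p6), and has matches to searched motifs in capitals. The capitals mark an AP-1 motif in Gm46555 (chr16:92450841-92451140, plus strand) and in Gm36199 (chr17:29434568-29434867, plus strand, the first of 4 promoters of this gene in the RefSeq table). In 4833438C02Rik (chr19:46305580-46305879, minus strand) they mark 1 NF-kB motif and 3 GC boxes, and in Gm9895 (chr19:29067051-29067350, plus strand) a CCAAT box.
Gm46555: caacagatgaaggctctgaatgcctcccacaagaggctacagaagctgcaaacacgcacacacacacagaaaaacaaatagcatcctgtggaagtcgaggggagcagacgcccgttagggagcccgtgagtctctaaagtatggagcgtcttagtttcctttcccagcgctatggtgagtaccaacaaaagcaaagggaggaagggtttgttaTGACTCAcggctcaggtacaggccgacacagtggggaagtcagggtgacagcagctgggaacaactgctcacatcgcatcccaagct
Gm36199: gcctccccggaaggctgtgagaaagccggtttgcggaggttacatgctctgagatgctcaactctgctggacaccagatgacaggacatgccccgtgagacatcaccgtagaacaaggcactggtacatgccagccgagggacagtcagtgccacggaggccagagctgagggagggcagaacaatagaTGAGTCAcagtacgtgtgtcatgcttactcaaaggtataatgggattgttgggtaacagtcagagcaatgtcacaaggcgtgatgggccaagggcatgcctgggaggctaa
4833438C02Rik: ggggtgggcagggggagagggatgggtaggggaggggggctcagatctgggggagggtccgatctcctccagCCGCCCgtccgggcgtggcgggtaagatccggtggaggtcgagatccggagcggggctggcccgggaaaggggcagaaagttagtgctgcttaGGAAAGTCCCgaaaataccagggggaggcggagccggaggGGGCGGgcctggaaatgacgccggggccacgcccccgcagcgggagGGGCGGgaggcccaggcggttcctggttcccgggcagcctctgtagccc
Gm9895: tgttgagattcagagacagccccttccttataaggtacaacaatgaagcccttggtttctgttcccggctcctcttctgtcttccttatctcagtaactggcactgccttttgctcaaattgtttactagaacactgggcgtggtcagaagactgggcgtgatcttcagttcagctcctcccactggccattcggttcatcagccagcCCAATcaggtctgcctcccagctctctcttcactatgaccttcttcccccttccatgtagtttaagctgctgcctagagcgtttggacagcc
All motifs were searched on both strands. The AP-1 motif, the site of Fos and Jun proteins, was searched as TGANTCA and the GC box as GGGCGG. The CCAAT box was searched by its name and the TATA box with the letters TATAAA. The NF-kB motif, the site of Rel proteins, was searched by its usual consensus. The NF-kB motif does not overlap a GC box in the sequence shown.

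RefSeq held 269 promoters for 188 members. A GC box stood in 16.4% of them, in 16.3% of 11588 promoters of all RefSeq lncRNA genes and in 35.7% of all 32851 promoters of the same length. The AP-1 motif stood in 13.4% of members' promoters, 9.31% of lncRNA promoters and 7.81% of all. For the CCAAT box the 3 shares were 36.8%, 36% and 37.4%, for the TATA box 13.4%, 15.5% and 13.6%, and for the NF-kB motif 5.2%, 4.94% and 5.8%. These are matches of letters, counted without a test, and members with several promoters count several times.

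The rule had not used the numbers in the names. By name, 372 of the 743 had Gm numbers from 49000 to 50999, and 142 from 30000 to 39999. These ranges were not counted among lncRNAs with coordinates, so they cannot be called particular to members. RefSeq held 302 of the 743, a list of Ensembl gene names 288, and neither held 281. The match depended on the number, since RefSeq held 130 of the 142 entries from 30000 to 39999 and 14 of the 372 from 49000 to 50999. Of the 302 matched, 292 were lncRNAs in RefSeq. Protein-coding in RefSeq were 4 (Gm5820, Gm5165, Gm49894 and Gm536), although the table lists them as lncRNAs.

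The members that could be placed were unevenly spread over the genome. Of the 302 members with a RefSeq position, 277 (91.7%) lay on chromosomes 15 to 19. Of the 8615 lncRNAs for which the table gave a position 707 (8.21%) lay there, and of 12731 lncRNA genes in RefSeq 2212 (17.4%). Chromosome 17 held 82 members, chromosome 18 held 60, chromosome 19 held 53, chromosome 16 held 43 and chromosome 15 held 39. No matched member lay on chromosomes 1, 2, 3, 5, 6, 7, 8, 11, X or Y. The table's positions were correspondingly thin on chromosomes 15 to 19, with 89 lncRNAs (1.03%) on chromosome 19, where RefSeq has 2.66% of its lncRNA genes. The 441 members without a RefSeq match could not be placed.

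**Figure D1:**
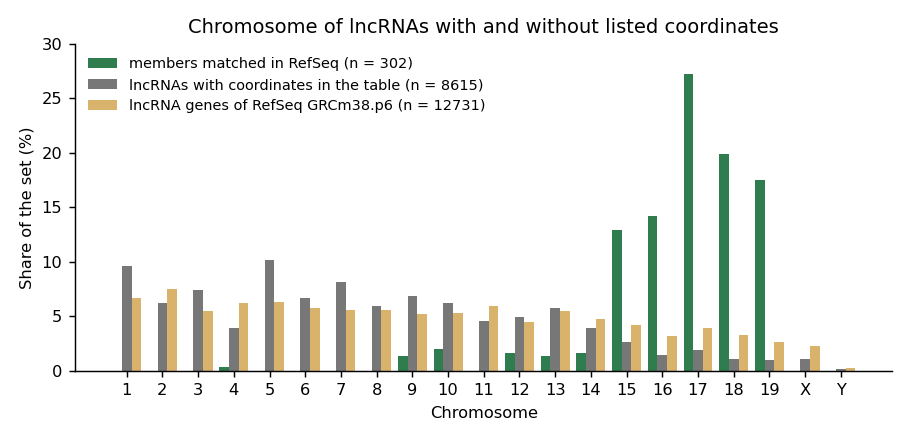
Share of each set (%) by chromosome for members matched in RefSeq (302), lncRNAs with a position in the table (8615) and RefSeq lncRNA genes (12731). The members' bars stand on chromosomes 15 to 19 with 12.9%, 14.2%, 27.2%, 19.9% and 17.5%, and are at or near 0 elsewhere.

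The positions put many members beside coding genes. The RefSeq span of 80 of the 302 overlapped that of a protein-coding gene, another 50 lay within 5000 bases of a coding gene, and 84 lay more than 50000 bases from any. For 33 overlaps the strand of both was known, and in all 33 the lncRNA and the coding gene were on opposite strands. Whether reads were counted by strand is not known, so for overlapping genes reads of the lncRNA and of its partner cannot be told apart. A microRNA gene lay inside the span of 3 members, Mir6956 in Gm10865, Mir1941 in Gm35853 and Mir31 in Gm49890.

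The unit of the levels is FPKM, in which the fragments of a transcript are divided by its length and by the total of the library. LncRNA and mRNA rows were scaled to different totals, so their FPKM cannot be compared with each other. The lncRNA totals recovered from the values were 2025331 to 2792592 reads for Sham hearts, and those for I/R hearts 2213168 to 2597795. The median member had 2.13 FPKM and 33 reads over the 6 hearts, against 4.51 FPKM and 81 reads for lncRNAs with coordinates. Its transcript length was 1130 bases, against 1306. Reads in all 6 hearts were found for 423 members (56.9%) and for 5718 lncRNAs with coordinates (66.4%). Fewer than 20 reads in all stood behind 327 members (44.0%, against 33.8%), and 1000 or more behind 77 (10.4%, against 15.8%).

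**Figure D2:**
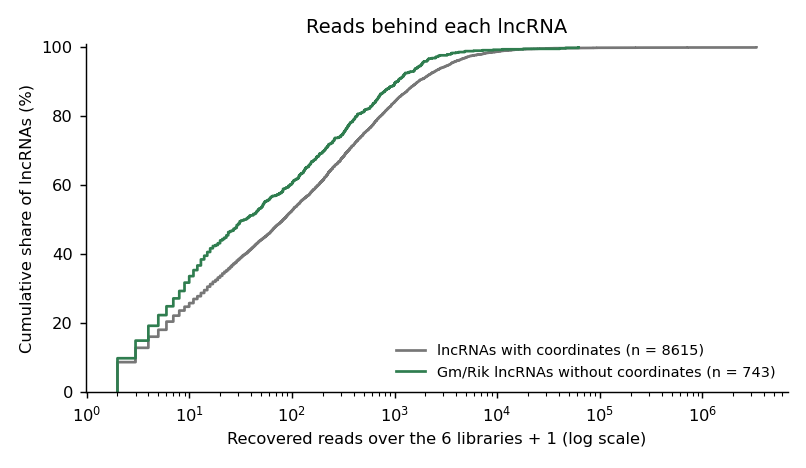
Cumulative share (%) of members (743) and of lncRNAs with coordinates (8615) by recovered reads over the 6 libraries plus 1, on a log axis. The members' curve lies above the other at low reads, with 44.0% of members and 33.8% of the other lncRNAs under 20 reads.

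In Sham replicates 1 to 3 the members together made up 3.92%, 3.68% and 3.79% of the lncRNA FPKM. In I/R replicates 1 to 3 they made up 3.75%, 4.003% and 3.76%. The 2 groups overlap. By reads the shares were lower, 2.78% to 2.94% in Sham and 2.77% to 3.09% in I/R. The 10 most abundant members held 43.9% to 48.9% of the members' reads.

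The most abundant member was Gm49708, with 2511, 2488 and 3252 FPKM in Sham, against 2322, 2604 and 2257 in I/R. Gm49513 followed with 2105, 2067 and 2133 in Sham, against 2183, 1918 and 1965 in I/R, and Gm50251 with 2045, 1977 and 2118 against 1999, 2054 and 1968. The groups overlapped for all 3, and within a group their hearts lay close together. Gm49513 and Gm50251 were short, 303 and 241 bases, so that 9161 and 7168 reads gave FPKM near those of Gm49708, which had 46409 reads over 1236 bases. Gm49759 had the most reads of any member, 62131 over 3887 bases, with 945, 1009 and 1114 FPKM in Sham, against 1046, 1329 and 1102 in I/R.

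Gm50321 had a mean of 1069 ± 91.8 FPKM (SD, n = 3) in Sham and 995 ± 50.6 in I/R. Gm50371 had 772 ± 2.85 against 822 ± 74.2, Gm50163 had 760 ± 61.7 against 724 ± 52.5, and Gm49476 had 645 ± 52.6 against 610 ± 137. Only 2 of these 10 were placed in RefSeq. Gm41757 lies on chromosome 18 within the span of Alpk2, which codes for a protein kinase, and had 1140, 825 and 861 FPKM in Sham, against 974, 1110 and 878 in I/R. Its 11214 reads compare with 320 of the listed Alpk2 transcripts. Gm41664 is described with the changes below. The changes of the 10, I/R minus Sham in log2(FPKM + 1), ran from -0.19 to 0.40.

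Among the Rik entries F730048M01Rik was the most abundant, with 667, 504 and 468 FPKM in Sham, against 546, 700 and 496 in I/R. 4930449E18Rik, within the span of Ablim1 (an actin-binding protein), had 343 ± 34.5 FPKM (SD, n = 3) in Sham and 302 ± 39.4 in I/R. 4930549G23Rik, overlapping Seh1l (a nuclear pore protein), had 250.3 ± 10.2 and 235 ± 32.5. 4930414N06Rik, opposite Slf2 (a genome maintenance factor), had 142 ± 14.7 and 148 ± 20.1. The 2 groups overlapped in these 4. The fifth, 1700023B13Rik, did not and is described below.

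At the other end, 220 members (29.6%) had a mean under 0.5 FPKM and were not tested. Just above this limit stood Gm34922 (10 reads in Sham, 0 in I/R), Gm41168 (4 and 2 reads) and Gm7644 (4 and 4), and just below it Gm50306 (3 and 0), Gm36684 (12 and 11) and Gm10802 (9 and 3). These values rest on at most 23 reads a member. The largest spread between hearts of a group was also at few reads. Gm50238 ranged from 0.996 to 12.7 FPKM within Sham on 21 reads, and Gm41750 from 0 to 5.77 within I/R on 4. Gm50054, Gm30093 and Gm36738 had 8, 13 and 13 reads in all.

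Whether lncRNA levels differ between reperfused and sham hearts is the question of the comparison. The 523 members with a mean of at least 0.5 FPKM were fitted with the other genes, 12114 in all, with limma on log2(FPKM + 1). None of the 523 passed at a Benjamini-Hochberg adjusted p of 0.05 (smallest 0.385), and none of all genes did (0%). Limma voom on the recovered reads also called 0. At an unadjusted p under 0.05, 26 members (4.97%) were higher and 34 (6.5%) lower in I/R, against 4.23% and 4.21% of all genes tested. Groups did not overlap for 25 members higher (4.78%, all genes 7.1%) and 41 lower (7.84%, all genes 6.57%). A positive change was found for 247 (47.2%, all genes 49.7%), and the median change was -0.03 for members, -0.03 for lncRNAs with coordinates and 0.00 for all genes. For lncRNAs with coordinates 4.81% were higher and 5.98% lower at an unadjusted p under 0.05. Their groups did not overlap for 5.96% higher and 7.6% lower, and 45.9% had a positive change. By these shares members lay nearer to lncRNAs with coordinates than to all genes, which include mRNA rows scaled to other totals. The differences were not tested.

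Among members the 2 directions rested on different read numbers. Of the 34 members lower in I/R at an unadjusted p under 0.05, 16 had fewer than 20 reads and 10 had 100 or more. Of the 26 higher, 3 had fewer than 20 and 21 had 100 or more. Over all genes tested, 380 of the 513 higher and 315 of the 510 lower had 100 or more. The split under 20 reads was counted for members only, so it cannot be called particular to them. Among the 293 tested members with at least 100 reads, a limit chosen after the values were seen, 21 (7.17%) were higher and 10 (3.41%) lower, against 4.58% and 3.8% of all genes with that many reads and 5.08% and 6.31% of lncRNAs with coordinates and that many reads. Groups did not overlap for 19 higher (6.48%, all such genes 8.33%) and 16 lower (5.46%, all such genes 6.59%), and 140 (47.8%) had a positive change, against 51.7%. Their median change was -0.02. Whether these shares differ was not tested. With members of any read number, 5 of the 78 tested Rik entries (6.41%) were higher and 3 (3.85%) lower, with a median change of 0.09. Of the 445 tested Gm entries 21 (4.72%) were higher and 31 (6.97%) lower, with a median of -0.06. The same shares were 4.23% and 4.21% for all genes tested, and 4.81% and 5.98% for lncRNAs with coordinates. Whether Rik and Gm entries differ was not tested.

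**Figure D3:**
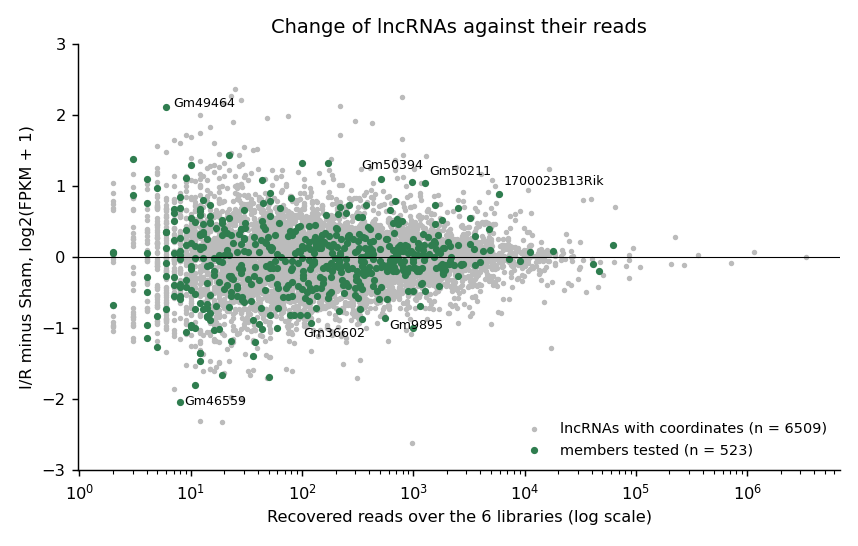
I/R minus Sham in log2(FPKM + 1) against recovered reads over the 6 libraries (log axis) for 523 members (green) and 6509 lncRNAs with coordinates (grey). Below 20 reads the fitted values of members reach 2.11 and -2.04 (both in members with 0 reads in a group, hence no measure of a fold), and they lie between -0.19 and 0.18 above 10000 reads.

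Of the 8 members with the smallest p in the direction higher in I/R, 5 had between 375 and 5916 reads. 1700023B13Rik had 225, 295 and 284 FPKM in Sham, against 461, 654 and 397 in I/R. All 3 I/R hearts lay above all 3 Sham hearts, with a change of 0.89 ± 0.20 (SE, limma, Benjamini-Hochberg adjusted p = 0.386). Gm50211 had 157, 113 and 135 against 210, 390 and 258 FPKM, again without overlap, a change of 1.042 ± 0.24 with the same adjusted p. Neither was placed in RefSeq. In both I/R replicate 2 was the highest heart, and without it the changes were 0.68 and 0.79.

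4930592I03Rik, which lies within the span of the zinc-finger gene Zfp516, had 38.5, 45.3 and 37.9 FPKM in Sham, against 57.3, 66.2 and 53.6 in I/R (change 0.53 ± 0.13, SE). Gm41664, whose span overlaps the kinesin heavy chain gene Kif5b in part, had 554, 558 and 516 FPKM in Sham, against 791, 689 and 669 in I/R (change 0.40 ± 0.09, SE). It was the narrowest of the changes with no overlap among the abundant members. Kif5b itself had 37.0 ± 4.27 FPKM (SD, n = 3) in Sham and 41.9 ± 6.64 in I/R, a change of 0.17 ± 0.16 (SE).

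Gm46555 (332 bases, spliced from chr16:92451091-92465834) lies opposite Rcan1, which codes for an inhibitor of the phosphatase calcineurin. It had 61.5, 51.1 and 59.5 FPKM in Sham, against 96.6, 117 and 76.9 in I/R, with every I/R heart above every Sham heart and a change of 0.73 ± 0.17 (SE). Rcan1 had 1.29 ± 0.319 FPKM (SD, n = 3) in Sham and 2.03 ± 0.566 in I/R, a change of 0.40 ± 0.23 (SE, unadjusted p = 0.136).

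The other 3 of the 8 had few reads. Gm50354 had 0, 0 and 0 reads in Sham, against 1, 1 and 1 in I/R. Gm49464 had 0, 0 and 0 against 3, 2 and 1, and 1700041B01Rik had 1, 2 and 1 against 5, 10 and 3. Their small p rests on these counts, and no fold is given for Gm50354 and Gm49464 because their Sham group is at 0.

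The 8 members with the smallest p in the direction lower in I/R all had fewer than 20 reads over the 6 hearts. Gm46559 had 3, 4 and 1 reads in Sham and 0 in each I/R heart, and Gm50477 had 1, 2 and 2 against 0 in each. 4930513L16Rik had 3, 9 and 6 against 0, 0 and 1, and Gm671 had 4, 5 and 5 against 1, 2 and 1. Gm36860 and Gm36677, on chromosomes 19 and 15, had the same reads, 3, 4 and 3 against 1, 1 and 0. Gm50256 had 6, 2 and 2 against 0, 1 and 0, and Gm50212 had 4, 3 and 2 against 0, 1 and 1. No I/R heart reached the lowest Sham heart in any of them. The largest of these groups held 18 reads.

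**Figure D4:**
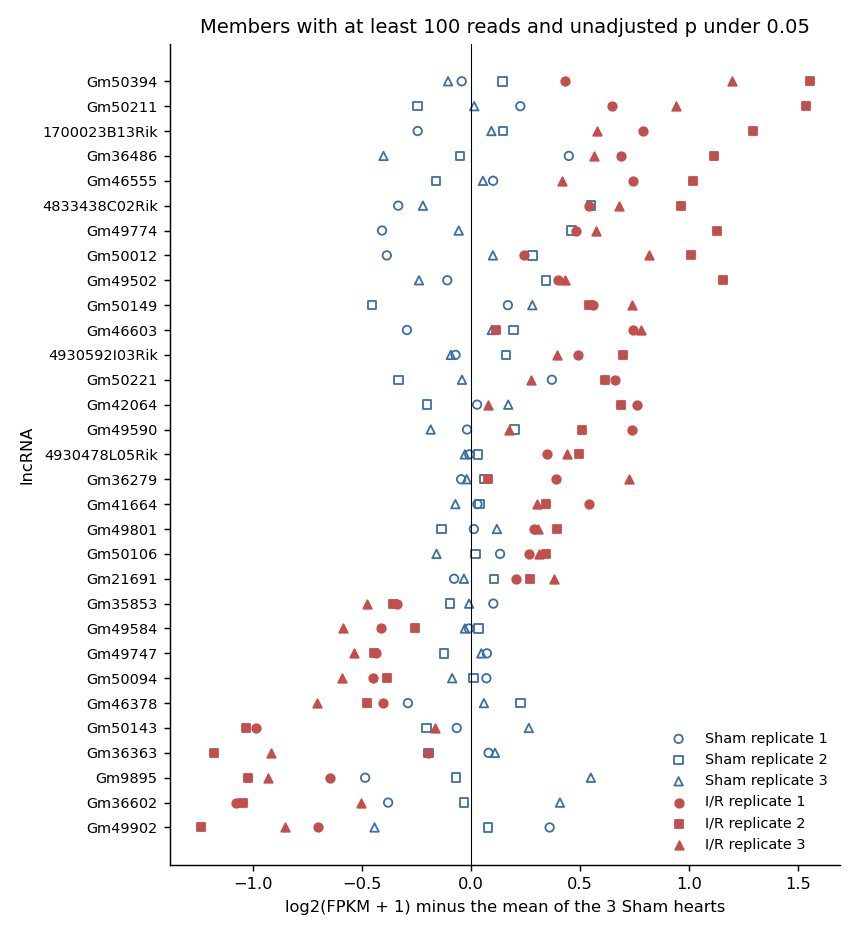
The 31 members with at least 100 reads and an unadjusted p under 0.05, each heart as log2(FPKM + 1) minus the mean of the 3 Sham hearts (open blue Sham, filled red I/R, shapes for replicates). The 21 members higher in I/R stand above the 10 lower ones, with changes from 0.29 to 1.06 and from -0.93 to -0.39.

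The following members were chosen after their values were seen. Among the 21 with at least 100 reads and higher values in I/R, the groups did not overlap for 15 (71.4%, against 87.1% of all genes selected by the same reads, p and direction), and limma's Benjamini-Hochberg adjusted p for these and the 10 lower ones ran from 0.386 to 0.591. Gm50394 had 38.0, 43.4 and 36.3 FPKM in Sham, against 53.1, 117 and 91.0 in I/R, the largest change of the 21 (1.06 ± 0.27, SE), 0.81 without I/R replicate 2. 4833438C02Rik lies within the span of Nfkb2, which codes for a subunit of NF-kB and has no row in the table. It had 35.1, 65.7 and 38.1 FPKM in Sham, against 65.3, 87.7 and 71.9 in I/R, so that Sham replicate 2 reached the lowest I/R heart. Its change was 0.73 ± 0.25 (SE). Its promoter, printed above, holds the NF-kB motif, which stood in 5.2% of members' promoters, 4.94% of lncRNA promoters and 5.8% of all. Whether the motif bears on its level was not tested.

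On chromosome 17, 3 members with higher values in I/R lay near each other, in a stretch drawn after their values were seen. Placed members to either side, also picked with values in view, were not higher. Gm41556 (chr17:29056348-29059553, 116 reads) had a change of -0.03 and Gm20161 (chr17:29652231-29658329, 110 reads) one of -0.82. Gm46603 (chr17:29319784-29326918) lies opposite Pi16, which codes for a peptidase inhibitor, and had 59.9, 84.5 and 78.8 FPKM in Sham, against 124, 79.8 and 127 in I/R. The groups overlap in I/R replicate 2, and the change was 0.55 ± 0.22 (SE). Pi16 had 1.38 ± 0.593 FPKM (SD, n = 3) in Sham and 0.768 ± 0.316 in I/R, a change of -0.41 ± 0.27 (SE), in the opposite direction to the lncRNA.

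Gm36486 (chr17:29430803-29437579, minus strand) and Gm36199 (chr17:29434818-29466079, plus strand) overlap each other on opposite strands, so their shared stretch may lend reads to either. Gm36486 had 9.41, 6.36 and 4.78 FPKM in Sham, against 11.3, 15.5 and 10.3 in I/R, without overlap (change 0.79 ± 0.27, SE). Gm36199 had 16, 8 and 2 reads in Sham, against 23, 34 and 16 in I/R, where the highest Sham heart and the lowest I/R heart had equal reads but 3.22 and 3.83 FPKM. Its change was 1.33 ± 0.40 (SE).

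The gene for the serine/threonine kinase Pim1 lies 24706 bases beyond Gm36199 on the same strand. Pim1 had 67.8 ± 12.9 FPKM (SD, n = 3) in Sham and 135 ± 26.8 in I/R, a change of 0.98 ± 0.20 (SE). Its unadjusted limma p was 0.00166 and its Benjamini-Hochberg adjusted p 0.386, so it was not called. Among the 9 coding genes drawn beside members, chosen with values in view, Pim1 had the largest change, so this rank carries no weight. Outside the 9, Myc, at 678823 bases from Gm41333, had a change of 1.28 ± 0.28 (SE).

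Other members with higher values lay opposite coding genes. Gm42064, opposite the sulfotransferase gene Gal3st3, had 90.4, 76.9 and 99.9 FPKM in Sham, against 151, 143 and 93.8 in I/R, overlapping in I/R replicate 3 (change 0.51 ± 0.20, SE). Gal3st3 had a change of 0.40 ± 0.20 (SE). Of the 26 overlaps in which both the member and the coding gene were tested, 16 had changes of the same sign. For some of these pairs the strand of the lncRNA is not known. Whether 16 of 26 differs from an even split was not tested.

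Among the 10 members with at least 100 reads and lower values in I/R, the groups did not overlap for 9 (90%, against 89.8% of all genes selected in the same way). Gm50094 had 28.1, 26.9 and 25.1 FPKM in Sham, against 19.2, 20.2 and 17.4 in I/R, the smallest p of the 10 (change -0.47 ± 0.12, SE). Gm36602, which lies 998 bases from the steroid hydroxylase gene Cyp17a1, had 8.74, 11.4 and 15.8 against 4.999, 5.14 and 7.95 FPKM (change -0.87 ± 0.27, SE). Gm49902 had 7.62, 6.08 and 3.94 against 3.12, 1.84 and 2.71 FPKM, the largest change of the 10 (-0.93 ± 0.27, SE). In these 3 the groups stood apart.

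Gm9895 (chr19:29067301-29069503) had 55.6, 74.7 and 115 FPKM in Sham, against 49.7, 38.0 and 40.6 in I/R. No I/R heart reached a Sham heart, although the Sham hearts differed among themselves by more than the groups do at their nearest, and the change was -0.86 ± 0.26 (SE). The adenylate kinase gene Ak3, at 19221 bases on the opposite strand, had a change of 0.15 ± 0.12 (SE). Gm36363, opposite Eva1c (a membrane protein gene), had 30.6, 25.1 and 31.2 FPKM against 25.02, 12.2 and 14.8, its change -0.76 ± 0.26 (SE), and Eva1c one of -0.29 ± 0.30.

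Gm35853, whose span on the plus strand of chromosome 15 holds Mir1941 and overlaps that of Gm671 on the minus strand, had 11.02, 9.47 and 10.1 FPKM in Sham, against 7.85, 7.75 and 7.05 in I/R (change -0.39 ± 0.15, SE). The groups stood apart here, as they did in the 18 reads of Gm671. Gm10865, which holds Mir6956, had 115 ± 9.79 FPKM (SD, n = 3) in Sham and 99.96 ± 5.3 in I/R, a change of -0.20 ± 0.10 (SE) at an unadjusted p of 0.0978. The microRNAs themselves were not analysed here.

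**Figure D5:**
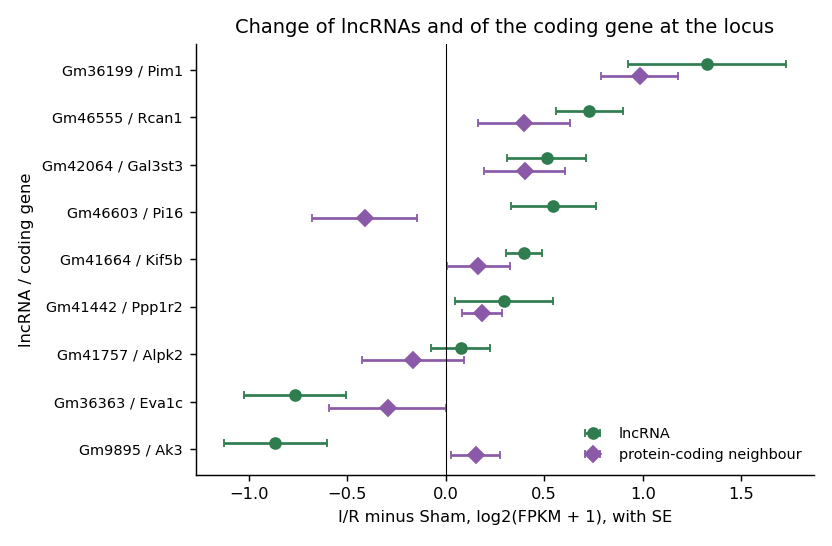
I/R minus Sham in log2(FPKM + 1) with SE for 9 members (circles) and the coding gene at their locus (diamonds), pairs chosen after their values were seen. Gm36199 and Pim1 have the largest positive changes, 1.33 and 0.98. Gm46603 and Pi16 (0.55 and -0.41) and Gm9895 and Ak3 (-0.86 and 0.15) have changes of opposite sign. Pi16, Eva1c and Rcan1 rest on 99, 28 and 186 reads over the 6 libraries.

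Large changes also stood in members whose hearts differed too much to pass an unadjusted p of 0.05. 6530413G14Rik had 2.92, 3.26 and 3.68 FPKM in Sham, against 2.76, 20.6 and 13.9 in I/R, so that I/R replicate 1 lay below the Sham hearts and the other two I/R hearts far above them (change 1.32 ± 0.61, SE, unadjusted p = 0.0676). Gm39556 had 23.3, 19.4 and 4.83 FPKM against 20.5, 48.5 and 25.9, its low value being Sham replicate 3 (change 1.104 ± 0.58, SE, unadjusted p = 0.0976). Without Sham replicate 3 the change of Gm39556 was 0.46, and without I/R replicate 2 that of 6530413G14Rik was 0.81.

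Among the members with at least 100 reads and an unadjusted p under 0.05, the most extreme I/R heart was not always the same one. I/R replicate 2 was the highest of the 3 in 13 of the 21 members with at least 100 reads and higher values, and replicates 1 and 3 in 4 each. In the 10 lower members replicate 3 was the lowest in 5, replicate 2 in 4 and replicate 1 in 1. These counts cover only members chosen by their reads and p. The same share over all genes was not counted, so they cannot be called particular to members. Marker genes of cell types also differed between hearts. Of 5 atrial markers, all listed, Myl7 (the atrial myosin light chain) had 0.342, 43.2 and 115 FPKM in Sham, against 0.220, 326 and 10.4 in I/R, and the summed level ran from 330.1 to 722 and from 466 to 953.3. The 8 listed of 10 ventricular markers summed to 611 to 687 FPKM in Sham and 487 to 544 in I/R, the 4 listed of 7 macrophage markers to 885 to 1064 and 1096 to 1191, and the 6 fibroblast markers to 209 to 285 and 293 to 333. The 3 listed of 5 endothelial markers summed to 96.1 to 124 and 114 to 145 FPKM. Listed lymphocyte markers summed to at most 1.05 FPKM and blood markers to at most 6.54. Of 4 skeletal muscle markers 3 were listed, summing to 162.6 to 1174 FPKM in Sham and 348.7 to 1371 in I/R, nearly all of it Acta1 (skeletal actin, which heart muscle also expresses). The part of these differences in the members' values was not tested.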

How the data were processed

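The deposited values are FPKM per transcript for 6 libraries, computed by the authors. Tools in the submitters' processing notes, which assign no steps, are HTSeq (0.10.0), HISAT2 (2.1.0), fastp (0.23.0) and bcl2fastq (2.19.1.403), and builds are GRCm38 and GRCm39. Annotation and strand setting: not given in the sources used here. After 40 repeated rows of 21198 were dropped, transcripts of a protein-coding gene were summed. Because FPKM steps are whole multiples of what 1 read is worth, reads were recovered (whole within 1e-05) for 9413 of 9413 lncRNA rows and 11744 of 11745 mRNA rows. The mRNA totals were 7233171 to 9902397 reads, of which the listed rows held 36.8% to 39.9%. A coding gene's value is the sum of its listed transcripts and may leave out others.

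Values log2(FPKM + 1) with a mean of at least 0.5 FPKM entered a limma model (version 3.58.1, R 4.3.3) with group alone, a variance trend, two-sided p and Benjamini-Hochberg adjustment over all 12114 genes. A change is I/R minus Sham on this scale, which understates low genes. Both steps were tested on simulated data with known answers. Reads were recovered exactly for 98.8% of simulated lncRNA rows and 99.0% of mRNA rows. For the limma step the spreads of real genes were reshuffled over genes in each library, so spread was not tied to abundance. There it called 113 of 200 genes changed 4-fold and 0 of 11914 unchanged genes, shares that need not hold for these hearts. An absence of calls therefore does not show an absence of change. Positions, strands and promoters came from RefSeq GRCm38.p6 by symbol. Other steps ran in Python 3.11.15 with matplotlib 3.10.9, scipy 1.17.1, pandas 2.3.3 and numpy 2.4.6.

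The members, lists and tests were chosen with earlier results of these data known. The rule for named members took the 10 with the highest mean FPKM, the 8 per direction with the smallest unadjusted p, the 5 with the largest spread within groups, the 5 most abundant ending in Rik, and the 3 on each side of the filter. Any other member is marked as picked with its values in view. The fit was repeated with pseudocounts of 0.1 and 0.5, without a filter and with one at 1 FPKM, after median-ratio scaling and quantile normalization, without the variance trend, with library weights, a replicate block, lncRNAs alone, limma voom on recovered reads, all lncRNAs without coordinates, and each library left out. An item that met the rule for members is not reported here.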

Additional observations from a re-analysis of the deposited data

How the results depend on the processing

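No member passed at an adjusted p of 0.05 under the 13 other settings (smallest limma adjusted p 0.18) or with each heart left out in turn (smallest 0.233). The number at an unadjusted p under 0.05 ran from 20 to 30 higher in I/R and from 24 to 41 lower, and with a heart left out from 19 to 34 and from 31 to 38. Members whose groups do not overlap numbered 43 to 60 higher and 62 to 75 lower with a heart left out, because 2 hearts against 3 separate more easily. The median change stayed between -0.04 and -0.01 under the other settings and between -0.05 and -0.01 with a heart left out. The replicate block gave 26 higher, 36 lower and 0 called. Same-numbered hearts correlated by 0.153, 0.0283 and 0.0287 in their deviations from the group means, and Sham replicate 2 correlated best with I/R replicate 3 (0.111), so the numbers were not taken as pairs. Limma voom on lncRNAs alone was chosen after seeing the data. Summed as reads, which are not divided by length, the members' shares of the lncRNA total were 2.854%, 2.784% and 2.942% for the Sham hearts, against 2.87%, 3.091% and 2.774% for I/R. The change was recomputed for 46 members, which include every member given in a sentence with a change and its SE. None of them reversed its direction or was called under any alternative in which it was fitted. Gm50354 and Gm50477 were not fitted with the filter at 1 FPKM, nor Gm50477 without Sham replicate 3. Many of the 46 were named for a small p in these same libraries. A kept direction was therefore likely beforehand and is no independent support. Depth limits the 220 members under the filter and the 110 tested ones with fewer than 20 reads, for which a change of a few reads decides the sign.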
